A study of Mus musculus with 4 samples.

Results

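Imprinted genes are expressed mainly from one parental copy, and 38 of them, from 19 imprinted domains of the mouse genome, were followed here in embryonic stem (ES) cells of the diabetes-prone NOD strain and of the C57BL/6 (B6) strain. The genes were taken by name. A listed H3K27ac region (acetylation of lysine 27 on histone H3, found at active enhancers and promoters) belonged to a gene when the deposited list named that gene for it, and a listed H3K4me3 region (trimethylation of lysine 4 on histone H3, found at promoters) belonged to a gene when it overlapped the gene body or lay within 5 kb of an annotated transcription start site (TSS). Of 31315 listed regions, 49 belonged to the 38 genes.

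The study compared chromatin of ES cells from the autoimmune-prone NOD strain with that of B6 ES cells. Both strains were grown in 2i, a pair of inhibitors of the kinases MEK and GSK3 that holds ES cells in a naive state. The lines were derived from blastocysts of each inbred strain. Culture without feeder cells is stated where the paper describes its RNA-Seq and is not repeated for the ChIP-Seq. There were 4 ChIP-Seq libraries, 1 for each strain and mark, so no spread between replicates could be measured, no test was run and every statement compares these libraries. Each list holds only regions that stood out against the other strain's library, at least 4-fold for H3K4me3: a gene without a region may carry equal marks in both strains or a smaller difference.

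In most imprinted domains, though not in all, a stretch of CpG-rich DNA, the imprinting control region, is methylated on the copy from one parent. It is unmethylated on the other copy, where it carries H3K4me3. Many control regions lie at the start of a long noncoding RNA, such as Kcnq1ot1 or Airn, whose transcription from the unmethylated copy keeps neighbouring protein-coding genes silent on that copy. In ES cells the methylated copy is kept methylated by ZFP57, a zinc finger protein that binds the hexamer TGCCGC when its CpG is methylated and recruits TRIM28 and SETDB1.

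H3K4me3 at the imprinted genes was more often listed as higher in NOD than in B6. NOD-enriched H3K4me3 regions lay at 17 of the 38 genes (44.7%), where 23.2% of all 26180 annotated genes had one by the same rule. B6-enriched regions lay at 6 of 38 (15.8%), against 15.3% of all genes. Nearer to the start sites the gap widened. Within 5 kb of a TSS, 15 members had a NOD-enriched region (39.5%, against 15.9% of all genes) and 2 had a B6-enriched one (5.26%, against 8.9%). Within 1 kb the numbers were 14 for NOD (36.8%, against 8.22%) and 1 for B6 (2.63%, against 4.98%). The members are longer than other genes, with a median annotated length of 24.3 kb against 14.3 kb, which bears on the body rule and less on the 1 kb rule. The NOD H3K4me3 library was also 1.54 times deeper (22750449 tags against 14791364), and the whole NOD list was longer than the B6 list (12077 and 7587 regions).

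H3K27ac leaned the same way. NOD-enriched H3K27ac regions were named for 12 members (31.6%, against 17.6% of all genes), and B6-enriched ones for 3 (7.89%, against 16.3%).

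**Figure D1:**
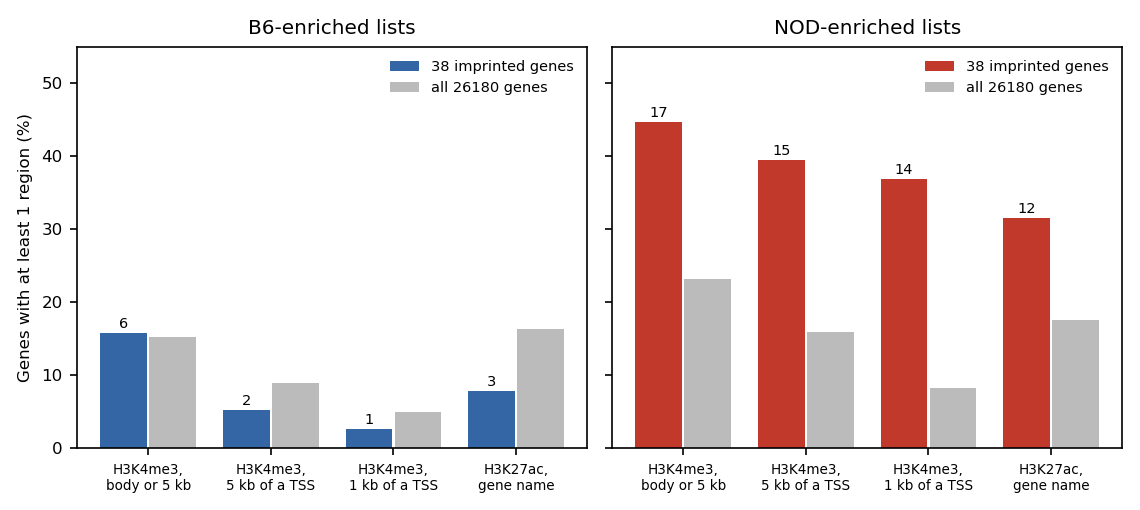
Share of genes with at least 1 strain-enriched region (vertical axis, %), for the 38 imprinted genes (coloured bars, number of genes above each) and all 26180 genes (grey bars), by list and by the rule that ties a region to a gene. In the NOD-enriched lists the imprinted genes stand above all genes under each of the 4 rules, from 31.6% to 44.7%; in the B6-enriched lists they lie between 2.63% and 15.8%.

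Counted by region, 24 of the 32 H3K4me3 regions were NOD-enriched, 75.0% (exact binomial 95% interval 56.6 to 88.5, counting error only), where NOD made up 61.4% of both whole lists. Among the 17 member regions within 1 kb of a TSS, 16 were NOD-enriched (94.1%, 71.3 to 99.9), against 63.2% of all 3198 such regions. Of the H3K27ac regions 14 of 17 were NOD-enriched (82.4%, 56.6 to 96.2), against 52.6% of the whole lists. The interval of the H3K4me3 share over all member regions includes the share of the whole lists. The intervals treat regions as independent, but regions of a domain are neighbours on the same chromosome. None of the intervals therefore tests a difference from the whole lists, and these shares are descriptions of the lists.

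By gene, 23 members had a region in at least 1 list and 15 had none. Regions of NOD alone were found at 15 genes, of B6 alone at 1 (Zim1, a zinc finger gene of the Peg3 domain), and of both strains at 7. Both marks were NOD-enriched at 7 genes: Kcnq1ot1, Meg3, Airn, Igf2r, Zrsr1, Slc38a4 and Mcts2. The marks need not share a site: the H3K27ac regions named for Igf2r and Mcts2 lay 22.5 and 14.5 kb from the start. Igf2r also shares its H3K4me3 region with Airn. The 15 genes with no region were H19, Phlda2, Peg3, Peg10, Sgce, Rtl1, Rian, Mirg, Ndn, Magel2, Mkrn3, Slc22a2, Slc22a3, Nnat and Nap1l5. NOD-enriched H3K4me3 was spread over 13 of the 19 domains and B6-enriched H3K4me3 over 4. No share over all genes was computed for the counts of this paragraph, so they describe the members only.

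**Figure D2:**
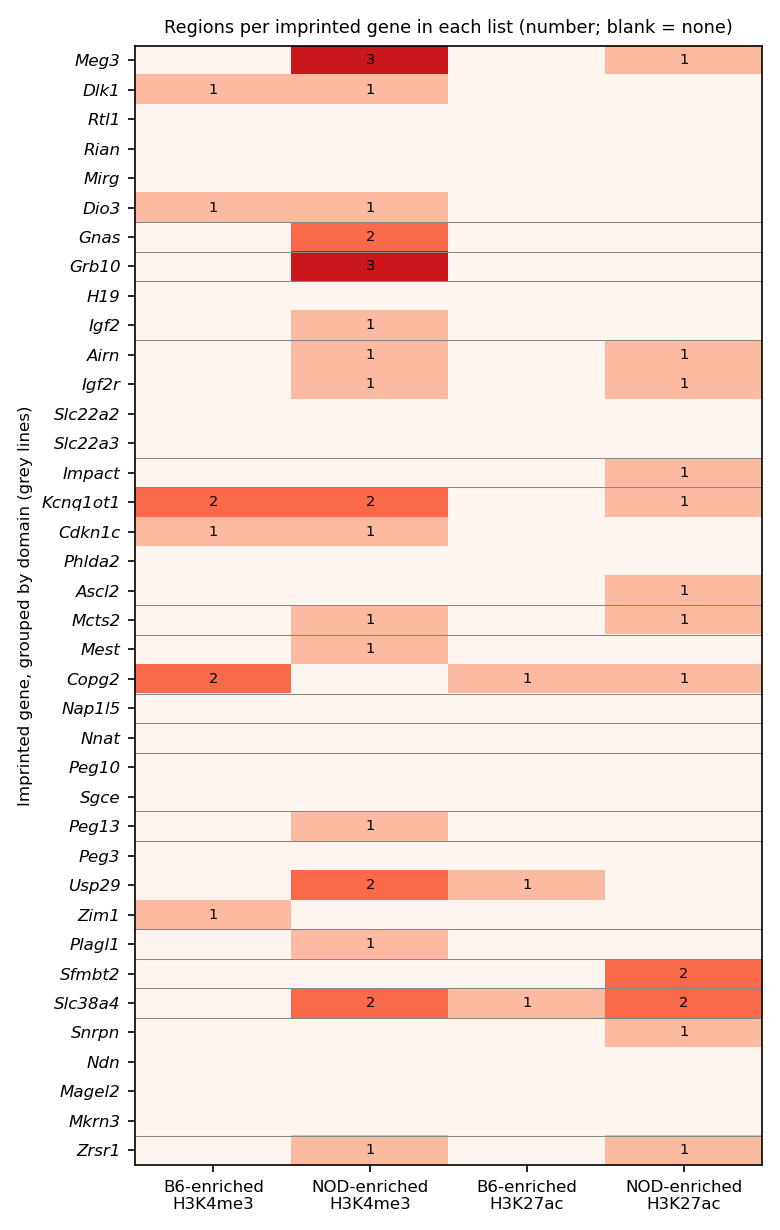
Number of strain-enriched regions at each of the 38 imprinted genes (rows, grouped by domain) in the 4 lists (columns); blank cells hold none, and the region shared by Airn and Igf2r is shown at both. The NOD-enriched H3K4me3 column holds entries for 17 genes and the B6-enriched H3K27ac column for 3.

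Sequence under the NOD-enriched H3K4me3 regions is shown for those within 1 kb of a start that held the ZFP57 hexamer, because the hexamer marks the DNA that imprinting control regions share. Each is a 200 bp stretch of the GRCm38.p6 (mm10) reference, plus strand, chosen to hold as many hexamers as possible, with TGCCGC or its reverse complement GCGGCA in capitals. The Airn and Igf2r stretch (chr17:12742193-12742392) lies in introns of both genes, the Peg13 stretch (chr15:72809913-72810112) in an exon of the noncoding Peg13 transcript, the Mest stretch (chr6:30737548-30737747) in an intron of the longer Mest transcript, and the Plagl1 (chr10:13090440-13090639) and Meg3 (chr12:109540706-109540905) stretches upstream of their genes. The Kcnq1ot1 stretch (chr7:143296637-143296836), the middle of the region over its start, is given beside them because it holds none. It lies upstream of the gene, 189 bp from the start, and holds only 1 CpG (observed over expected ratio 0.079). It is thus not CpG-rich and does not stand for the control region as a whole. The reference is of the B6 strain, and NOD sequence was not read.
Airn and Igf2r: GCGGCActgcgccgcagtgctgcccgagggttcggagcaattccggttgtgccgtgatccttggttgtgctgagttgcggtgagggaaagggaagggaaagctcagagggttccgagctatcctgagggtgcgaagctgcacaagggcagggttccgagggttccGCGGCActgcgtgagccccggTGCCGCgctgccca
Peg13: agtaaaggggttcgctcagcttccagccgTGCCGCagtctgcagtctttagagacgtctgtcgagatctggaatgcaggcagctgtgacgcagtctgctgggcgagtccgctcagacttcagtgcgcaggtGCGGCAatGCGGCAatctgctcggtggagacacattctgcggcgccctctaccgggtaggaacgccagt
Mest: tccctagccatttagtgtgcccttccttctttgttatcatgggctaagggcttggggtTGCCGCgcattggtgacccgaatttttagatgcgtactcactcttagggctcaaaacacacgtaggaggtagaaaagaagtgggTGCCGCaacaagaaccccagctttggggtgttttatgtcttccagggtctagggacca
Plagl1: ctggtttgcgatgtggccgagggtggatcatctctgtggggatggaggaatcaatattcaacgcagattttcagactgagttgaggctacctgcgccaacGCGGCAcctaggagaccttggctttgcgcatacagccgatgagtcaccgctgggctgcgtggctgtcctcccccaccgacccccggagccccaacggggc
Meg3: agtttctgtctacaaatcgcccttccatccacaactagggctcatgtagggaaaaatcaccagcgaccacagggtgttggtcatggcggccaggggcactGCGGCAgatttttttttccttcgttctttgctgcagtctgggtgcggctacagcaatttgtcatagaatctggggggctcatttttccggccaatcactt
Kcnq1ot1: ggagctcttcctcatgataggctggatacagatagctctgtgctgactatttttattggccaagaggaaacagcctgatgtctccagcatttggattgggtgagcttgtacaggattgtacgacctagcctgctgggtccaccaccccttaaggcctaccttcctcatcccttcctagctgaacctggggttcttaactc

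Counted over the whole regions, the Airn and Igf2r region held 6 hexamers, Peg13 5, Mest 3, Plagl1 2 and Meg3 1. The Dlk1 region held 1 and the Grb10 region over its start 2; they are not printed because untranslated exon sequence lies around them. In windows of 500 bp around the region centres, 7 of the 24 NOD-enriched member regions held the hexamer on either strand (29.2%), against 8.82% of the whole NOD list. Near starts, within 1 kb, it was 7 of 16 (43.8%) against 16.9%. The same windows were richer in CpG: the median observed over expected CpG ratio was 0.621 at the 16 member regions near starts and 0.395 at all such NOD regions. CpG content and the hexamer, which itself contains a CpG, move together here, and their separate parts were not tested. The 8 B6-enriched member regions had a median CpG ratio of 0.236, against 0.233 over their list, and 2 of them held the hexamer (25.0%, against 7.59% of the B6 list). The share with the hexamer was thus above that of the own list in both strains.

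A RefSeq promoter window, 250 bp before to 50 bp after a start, was on hand for 31 of the 38 members. The hexamer was found in 12 of them (38.7%), against 13.1% of 27025 genes. Of the 12 members in this set with any start within 1 kb of NOD-enriched H3K4me3, 6 held it in some window (50.0%), against 23.1% of the 1665 genes with such a region, and 6 of the other 19 members held it as well. Genes can have several windows, and the window with the hexamer need not be at the marked start. It overlapped a NOD-enriched region at Grb10, Meg3 and Plagl1 and lay 5 bp from one at Mest, 793 bp at Mcts2 and 1267 bp at Igf2. Counted by window, the hexamer was in 27.7% of member windows against 11.6% of all windows. These matches say which letters are present, not where a protein was bound.

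At the long noncoding RNAs and control regions the NOD signal was largest at Meg3, the maternally expressed noncoding RNA of the Dlk1-Dio3 domain on chromosome 12. A region in an intron near its start (chr12:109541588-109542824) held 304 NOD tags and 31 B6 tags, 6.38-fold higher in NOD after scaling to depth (exact binomial 95% interval 4.40 to 9.55). It had the most tags of any member region. Next to it, a region just upstream of the start (chr12:109540278-109540942) had 36 NOD and 4 B6 tags, 5.85-fold (2.10 to 22.6). A further region 2.73 kb into the gene (chr12:109543473-109543973) had 37 NOD tags and none in B6. With the B6 count set to the 3 tags that a count of 0 allows, it was at least 8.02-fold higher in NOD. Such bounds take the tags of the enriched strain as counted; with their counting error included, the exact 95% lower limit here was 6.20.

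All 3 Meg3 H3K4me3 regions lay inside a single NOD-enriched H3K27ac region of 23.1 kb (chr12:109523763-109546880). It had a score of 354.9 and ranked 51 of 6126 in the NOD list. The score is a unitless measure of signal in the own strain beyond the other strain. The region reached 17.2 kb upstream of the Meg3 start, into the stretch between Dlk1 and Meg3 where the control region of this domain lies. Dlk1 and Dio3, coding genes of the domain, had H3K4me3 regions of both strains. Dlk1, a transmembrane ligand related to the Notch ligands, had 185 NOD and 27 B6 tags over its start (chr12:109452882-109454036), 4.45-fold higher in NOD (2.96 to 6.94). A B6-enriched region in a Dlk1 coding exon, 6.45 kb downstream (chr12:109459656-109460156), had 17 B6 tags and 0 NOD tags, at least 8.72-fold higher in B6. Dio3, the deiodinase that inactivates thyroid hormone, also had a NOD-enriched region at its start and a B6-enriched one downstream. Its start (chr12:110278862-110279362) had 67 NOD and 10 B6 tags, 4.36-fold higher in NOD (2.23 to 9.50). A site 2.56 kb beyond the start (chr12:110281538-110282038), past the end of this 1.87 kb gene, had 26 B6 tags and 0 NOD tags. It was at least 13.3-fold higher in B6. NOD thus led at both starts, and B6 led inside Dlk1 and beyond Dio3.

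Airn, the noncoding RNA that runs antisense through Igf2r, starts at the control region of the Igf2r domain on chromosome 17. The region beside its start (chr17:12741638-12742515) had 198 NOD and 26 B6 tags, 4.95-fold higher in NOD (3.28 to 7.77). It lies 765 bp into Airn and in an intron of Igf2r, the receptor that takes up and degrades IGF2, 27.6 kb from the Igf2r start. ChIP reads carry no strand of transcription, so the region is counted for both genes. A NOD-enriched H3K27ac region lay 944 bp away on the other side of the Airn start (chr17:12739991-12740694, score 22.6), and another lay further along in Airn (chr17:12791291-12793086, score 30.4) and was named for Igf2r. The Igf2r promoter itself had no region in these lists.

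Kcnq1ot1, whose start is the control region of a large domain on chromosome 7, had regions of both strains. The region over its start (chr7:143296486-143296986) had 63 NOD and 8 B6 tags, 5.12-fold higher in NOD (2.45 to 12.4). A second, 2.44 kb into the transcript (chr7:143293392-143294814), had 117 NOD and 17 B6 tags, 4.47-fold (2.68 to 7.94). Between them lay a NOD-enriched H3K27ac region (chr7:143295933-143296253) with a low score of 9.68, against a list median of 12.9. Further into the transcript the direction turned: B6 had 23 tags against 6 at 17.9 kb, 5.90-fold higher in B6 (2.33 to 17.7), and 13 against 0 at 12.6 kb, at least 6.67-fold. Among the genes this RNA silences, Cdkn1c, an inhibitor of cyclin-dependent kinases, also had both. NOD had 22 tags and B6 0 over its start (chr7:143460669-143461169), at least 4.77-fold higher in NOD (exact lower limit 3.56). B6 had 33 tags and NOD 10 in a coding exon 1.23 kb downstream (chr7:143459474-143460148), 5.08-fold higher in B6 (2.44 to 11.6). Ascl2, a transcription factor of the placenta, had a NOD-enriched H3K27ac region 20.4 kb from its start with a score of 8.0, and Phlda2 had none.

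**Figure D3:**
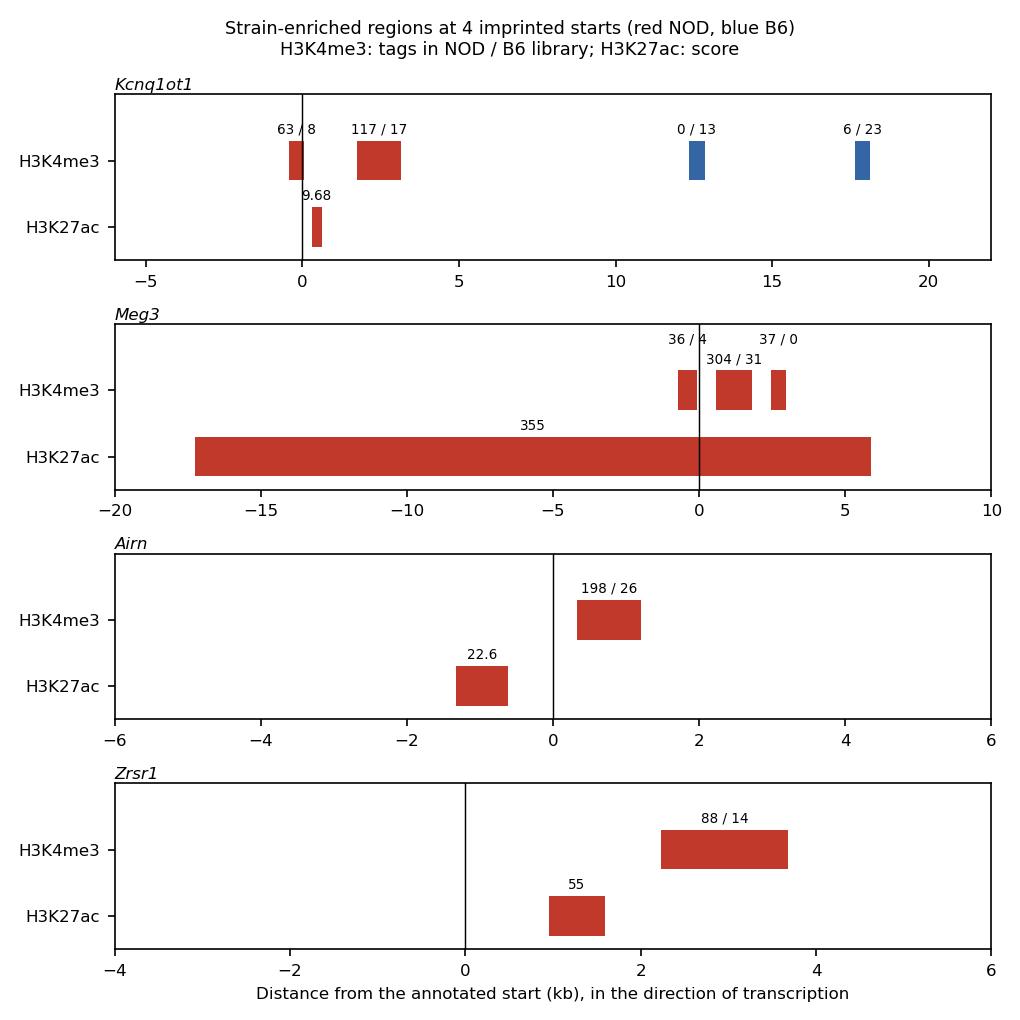
Strain-enriched regions around the starts of Kcnq1ot1, Meg3, Airn and Zrsr1 (horizontal axis, distance from the start in kb along the direction of transcription), with H3K4me3 regions above and H3K27ac regions below, red for NOD and blue for B6. Numbers over H3K4me3 bars are tags in the NOD and B6 libraries and over H3K27ac bars the score. Near each start the regions are red, with 304 and 31 tags in the highest at Meg3, and the B6 regions of Kcnq1ot1 lie at 12.6 and 17.9 kb.

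Several genes whose start is a control region methylated on the maternal copy, each expressed from the paternal copy, had H3K4me3 regions in the NOD list. Plagl1, a zinc finger transcription factor of a fetal growth network, had 171 NOD and 20 B6 tags just upstream of its start (chr10:13089940-13090787), 5.56-fold (3.49 to 9.33). Peg13, a noncoding RNA inside an intron of Trappc9, had 85 and 11 tags at its start (chr15:72809381-72810232), 5.02-fold (2.67 to 10.4). Mcts2, a retrogene inside an intron of H13, had 71 and 10 tags 1.20 kb downstream (chr2:152687990-152688707), 4.62-fold (2.37 to 10.04). That region lies past the end of this 0.8 kb gene, had a CpG ratio of 0.198 and held no hexamer. None of these genes had a B6-enriched region of either mark.

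Zrsr1, a retrogene for a splicing factor that lies within Commd1, had 88 NOD and 14 B6 H3K4me3 tags 2.96 kb downstream of its start (chr11:22974240-22975684), 4.09-fold (2.31 to 7.78). It also carried the highest H3K27ac score of a member after Meg3 in the NOD list, 55, in its single exon (chr11:22972962-22973594), 646 bp from the H3K4me3 region. Grb10, an adaptor that dampens insulin receptor signalling, had 51 and 7 tags over its start (chr11:12037061-12037561), 4.74-fold (2.14 to 12.4). Its other NOD-enriched regions lay in introns, with 36 NOD tags and 0 B6 tags at 5.17 kb and 29 and 2 tags at 63.9 kb. The Grb10 start is thus one of the 5 NOD-enriched member regions that cover a curated start, together with those of Kcnq1ot1, Cdkn1c, Dlk1 and Dio3.

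At Mest, a hydrolase gene of chromosome 6, NOD had 28 tags and B6 4 (chr6:30737295-30737795), 4.55-fold (1.59 to 17.9), 450 bp upstream of the nearest start. Its neighbour Copg2, a subunit of the vesicle coat COPI, had B6-enriched H3K4me3 in its introns, with 14 B6 tags and 1 NOD tag 8.25 kb from its start (21.5-fold, 3.28 to 911) and 22 and 5 tags at 92.0 kb (6.77-fold, 2.50 to 22.9). Copg2 was named for H3K27ac regions of both strains near its start, with scores of 8.48 in B6 and 5.97 in NOD. Chromosome 6 as a whole leaned to B6: NOD made up 35.0% of its H3K4me3 regions and 35.1% of its H3K27ac regions. The Mest H3K4me3 region stood against the lean of its chromosome and most Copg2 regions with it. By position, a B6-enriched H3K27ac region with a score of 7.35, named for Mir335, also lay in a Mest intron. Leaving out the members on chromosome 6, the NOD share of member regions was 79.3% for H3K4me3 and 86.7% for H3K27ac.

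Among growth genes, Igf2, the fetal insulin-like growth factor, had 30 NOD and 2 B6 tags in a region over the start of a predicted transcript (chr7:142659455-142659955), 9.75-fold (2.47 to 84.2). H19, its reciprocally imprinted noncoding partner, had no region. Gnas, which encodes the stimulatory G protein alpha subunit and several imprinted transcripts, had 44 and 7 tags (chr2:174285285-174285785), 4.09-fold (1.83 to 10.7), and 25 and 2 tags (chr2:174296897-174297397), 8.13-fold (2.03 to 70.8), both over starts of predicted transcripts. By position, though not by name, a NOD-enriched H3K27ac region of 7.18 kb with a score of 93.0 lay in the same gene between these regions and was named for Nespas, the antisense RNA of the domain.

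Slc38a4, an amino acid transporter of the placenta, had small H3K4me3 regions in the NOD list, with 22 NOD tags against 0 at 703 bp and 21 against 0 2.10 kb upstream of the nearest start. Its H3K27ac regions were of both strains, with a score of 13.7 in B6 and a highest score of 7.77 in NOD, and these lay side by side in its first intron. A further NOD region, scoring 7.66, was intergenic, 94.0 kb from the start. At the Peg3 domain the strains divided by position. Usp29, a deubiquitinase gene that shares its promoter region with Peg3, had a B6-enriched H3K27ac region of 11.5 kb in an intron, 35.2 kb from its start (chr7:6760070-6771540). Its score of 243.8 ranked 38 of 5525 in the B6 list.

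At the far end of Usp29, 222 and 226 kb from its start, the direction was the opposite. NOD had 73 tags and B6 0 in one region (chr7:6955728-6956910), at least 15.8-fold, and 57 and 4 tags in the next (chr7:6952314-6953092), 9.26-fold (3.43 to 35.2). The first of these overlapped a NOD-enriched H3K27ac region named for Zim3 with a score of 111.3. Zim1 had 19 B6 tags and 1 NOD tag in an intron (chr7:6687675-6688175), 29.2-fold with an interval from 4.65 to 1214.

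**Figure D4:**
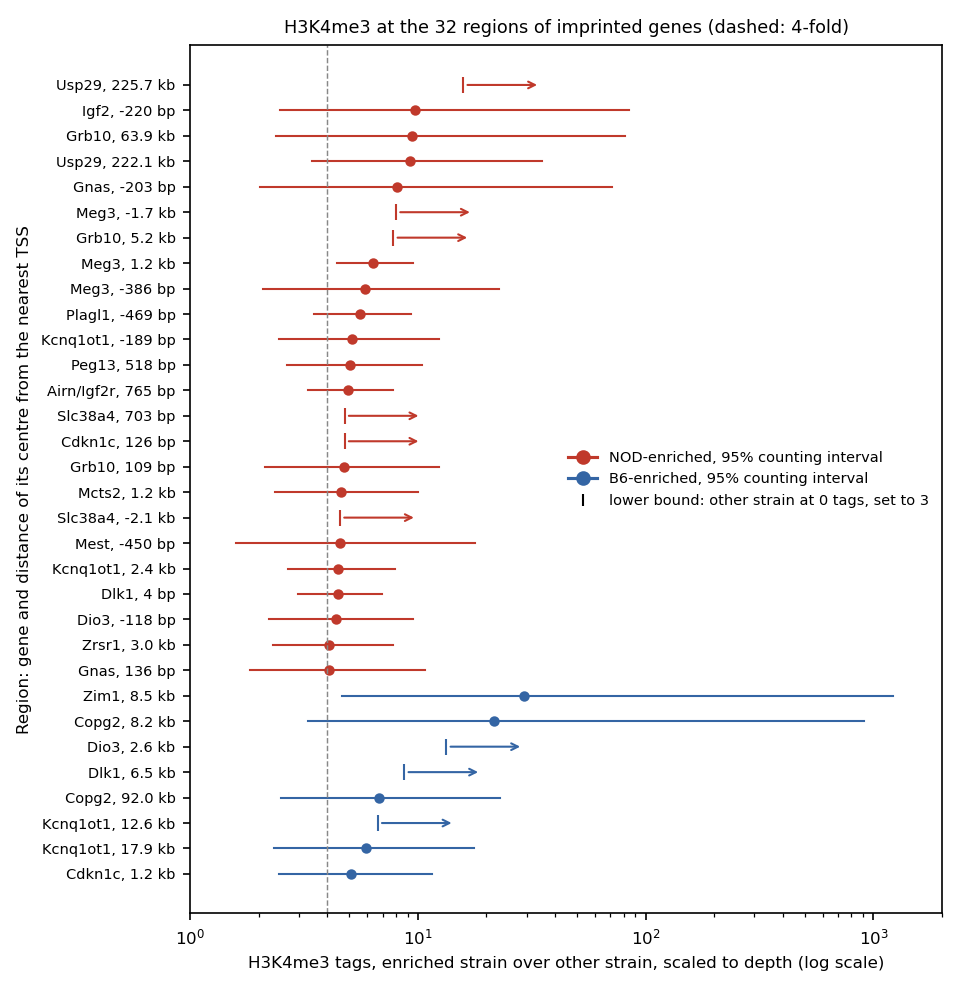
H3K4me3 tags of the enriched strain over those of the other strain, scaled to library totals (horizontal log axis), for the 32 regions of imprinted genes, labelled by gene and distance from the nearest annotated start. Points carry exact binomial 95% intervals, arrows are lower bounds where the other strain had 0 tags, and the dashed line is the 4-fold threshold of the lists. NOD folds (red) run from 4.09 to 9.75 where both libraries had tags.

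The NOD-enriched member regions had more tags and smaller folds than their list. Their median was 54 NOD tags, against 30 over the list, and 13 of 24 (54.2%) had at least 50 tags, against 22%. They were wider too: 11 of 24 (45.8%) exceeded the 500 bp minimum, against 27.2%. Of the 18 with tags in both libraries, 13 had a fold between 4 and 6 (72.2%), against 42.4% of the list. The B6 library had 0 tags in 6 of 24 (25.0%), against 34.9% of the list, and at most 31 tags in the others. The NOD-enriched member regions also lay nearer to starts, with 16 of 24 within 1 kb of a TSS against 2021 of 12077 in the list. Tags, width, fold and overlap with H3K27ac were not compared among regions near starts alone. The 8 B6-enriched member regions had 13 to 33 B6 tags, with a median of 20.5 against 20 over the B6 list, and none covered a start. At folds of at least 8, with a count of 0 set to 3 tags, the NOD count fell from 17 to 5 genes. The B6 count fell from 6 to 4, so the lean to NOD by gene was nearly gone there. Where the other library had 0 tags, that rule is harder on the NOD list, because the NOD library was 1.54 times deeper. It does not touch the 13 NOD regions with folds between 4 and 6, which had tags in both libraries. A NOD region at Grb10 with 36 tags against 0 dropped out at 7.80-fold, though the gene stayed through another region at 9.43-fold. A B6 region at Dlk1 with 17 tags against 0 stayed at 8.72-fold. The shares of all genes at this fold were not computed.

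Only the Meg3 regions and the Usp29 region overlapped H3K27ac of the same strain. That is 4 of 24 NOD regions (16.7%), against 5.82% of the NOD list, and 0 of 8 in B6, against 3.63%. The 3 Meg3 regions lie in a single H3K27ac region, so the 4 overlaps are not separate sites. With H3K27ac within 1 kb counted, it was 7 of 24, the added regions being those at the starts of Kcnq1ot1 and Airn and at Zrsr1.

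Snrpn, Impact and Sfmbt2 had H3K27ac regions and no H3K4me3 region. Snrpn, a splicing protein gene in the domain lost in Prader-Willi syndrome, had a NOD-enriched region 2.39 kb from the start named in the file, with a score of 16.0. Impact, a regulator of translation, had one in its first intron with a score of 30.2. Sfmbt2, a Polycomb group gene needed in the placenta, had regions scoring 44.3 upstream of its start and 11.5 in an intron. Mcts2, which also had NOD-enriched H3K4me3, was named for a NOD-enriched H3K27ac region of 11.7 kb, 14.5 kb from its start, with a score of 11.1. Over the 14 NOD-enriched member regions the median score was 13.8, near the list median of 12.9, and 7 of them lay above it.

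**Figure D5:**
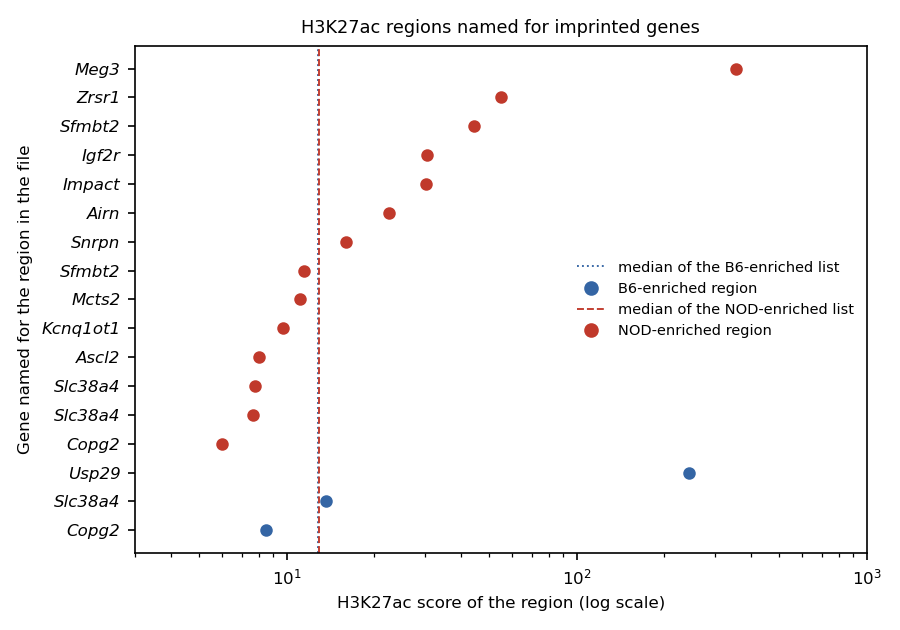
Score of each H3K27ac region named for an imprinted gene (horizontal log axis, unitless), red for NOD-enriched and blue for B6-enriched, with the medians of both lists as dashed and dotted lines. Meg3 at 354.9 and Usp29 at 243.8 stand far above the list medians of 12.9 and 12.8, and 7 of the 14 NOD regions lie above the NOD median.

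The proteins that keep imprints had regions of their own. Of 10 such genes, 6 had a B6-enriched H3K4me3 region (Zfp57, Zfp445, Uhrf1, Dppa3, Ctcf and Arid4b) and 3 a NOD-enriched one (Trim28, Arid4a and Arid4b), where the shares over all genes were 15.3% and 23.2%. H3K27ac regions were named for 3 of them in B6 and 4 in NOD, against 16.3% and 17.6% of all genes. The widest difference was at Zfp57, where B6 had 60 tags and NOD 1 in a region 2.34 kb from a start (chr17:37005360-37006656), 92.3-fold higher in B6 (15.9 to 3705). Zfp445, the other zinc finger protein that protects imprints, had 3 B6-enriched regions with 13 to 23 B6 tags and 0 NOD tags in each. Trim28, the corepressor that ZFP57 recruits, was higher in NOD instead, with 72 and 5 tags just upstream of its start, 9.36-fold (3.83 to 29.7). Setdb1, the histone methyltransferase of the same complex, had a NOD-enriched H3K27ac region with a score of 193.4, ranked 175 of 6126. Whether these go with the marks at the imprinted genes was not tested.

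The cell type could be checked only in part, since the lists give differences and not levels. Of 6 ES cell markers 4 had a NOD-enriched H3K4me3 region, against 23.2% of all genes: Pou5f1, Sox2, Esrrb and Tfcp2l1. Of these 4, 2 (Esrrb and Tfcp2l1) also had B6-enriched ones, against 15.3% of all genes. The Pou5f1 region was centred 1.70 kb upstream of the start, with 110 NOD tags and 0 B6 tags. At the Pou5f1 promoter itself the paper reports equal enrichment of the marks in both strains. Nanog and Klf4 had no H3K4me3 region. H3K27ac regions were named for Nanog, Klf4 and Tfcp2l1 in NOD and for Klf4 and Tfcp2l1 in B6, against 17.6% and 16.3% of all genes. Of 3 primitive endoderm genes, Gata4 and Gata6 had NOD-enriched H3K4me3 near their starts, with 118 and 152 NOD tags against 16 and 15 in B6, and Gata4 also had a B6-enriched region with 15 tags against 0. Of 4 fibroblast genes none had NOD-enriched H3K4me3 and 1, Col1a1, had B6-enriched H3K4me3. H3K27ac was NOD-enriched at Col1a2 and Col3a1 and B6-enriched at Col1a1 and Col1a2. Sox17, the remaining endoderm marker, had no region. The part of other cell types in the NOD values was not tested.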

How the data were processed

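ChIP-Seq of H3K4me3 and H3K27ac was made by the authors in B6 and NOD ES cells, 1 library for each strain and mark, with single-end 50 bp reads. Per the study's methods reads were aligned with bowtie2 to mm10 and regions were made with HOMER 4.8, while the submitters' processing notes list mm9, CASAVA 1.8.2 and STAR 2.2.0c. The files were read as mm10, since the deposited H3K27ac annotation names it and 88.4% of 11508 deposited TSS distances match GRCm38.p6 RefSeq within 2 bp. Reads of both strains were aligned to the same reference, which is of the B6 strain.

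The deposited H3K4me3 files hold whole tag counts for the B6 library and, per the file headers, NOD tags as a signal scaled to the other library (peak size 500 bp, tag threshold 8, 4-fold). Whole NOD tags were recovered by undoing the scaling: 100% of 16800 values came within 0.1 of a whole number, and placeholders in empty regions were read as 0. The deposited H3K27ac files hold a HOMER score without a stated scale, and their depth is unknown. Further deposited columns hold the authors' own fold changes and p-values and were not used.

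Folds are tag ratios scaled to library totals with exact binomial 95% intervals (scipy 1.17.1), which cover counting error only, and a count of 0 was set to 3 tags. The gene rule and intervals were tested on simulated data. Values were given for each member with an H3K4me3 region within 5 kb of a TSS and for the top H3K27ac region of each member; H3K4me3 regions in gene bodies were added after their values were seen. The members and lists were chosen with earlier results of these data known. Alternatives changed the window, fold, tag, score, scaling and overlap choices.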

Additional observations from a re-analysis of the deposited data

How the results depend on the processing

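Of 29 alternative values of the main counts, shares and folds, 23 stayed within 1.5 times the main count or within the interval of the main share, and 6 did not. For B6-enriched H3K4me3 the 6 member genes became 2 within 5 kb of a TSS and 1 within 1 kb. For NOD-enriched H3K4me3 the 17 genes became 5 at a fold of at least 8, beside 4 of 6 in B6. For NOD-enriched H3K27ac the 12 genes became 7 at scores at or above the list median. The NOD share of H3K4me3 regions rose from 75.0% to 91.3% within 5 kb of a TSS, and at a fold of at least 8 it was 60.0% (6 of 10 regions). The overlap of H3K4me3 with same-strain H3K27ac rose from 4 to 7 regions when a gap of 1 kb was allowed. Each of these follows from the regions that the rule keeps or adds.

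With 1 tag added to both libraries the median of 23 member folds moved from 5.12 to 4.79 and 3 of them fell below 4-fold, and scaling to tags outside the listed regions gave 5.19. The intervals of 21 of the 23 folds start below 4 and none starts below 1, so the size of most single folds is not settled at this depth. No paired analysis was possible because each group has 1 library. No replicate could be left out for the same reason.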

Other observations

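Beyond the 38 genes, 36 further genes of imprinted domains were looked up by the same rules. NOD-enriched H3K4me3 lay at 15 of them (41.7%, against 23.2% of all genes) and B6-enriched H3K4me3 at 7 (19.4%, against 15.3%). H3K27ac was B6-enriched at 13 (36.1%, against 16.3%) and NOD-enriched at 9 (25.0%, against 17.6%). Several of these regions are those of the members, since Kcnq1ot1 lies in Kcnq1, Mcts2 in H13, Peg13 in Trappc9 and Zrsr1 in Commd1. Zim3 likewise shares a region of 73 NOD tags and 0 B6 tags with Usp29. The 41.7% is therefore not separate from the share of the members, and no share without the common regions was computed. Inpp5f, an inositol phosphatase with an imprinted short transcript, had 371 NOD and 48 B6 tags at its start (5.03-fold, 3.71 to 6.94), more than any member. Rasgrf1, a Ras exchange factor, had 34 and 3 tags over its start (7.37-fold, 2.32 to 37.5). Zim3 of the Peg3 domain had 99 and 16 tags just upstream of its start (4.02-fold, 2.36 to 7.31). Begain, next to Dlk1, had 95 and 12 tags at its start (5.15-fold, 2.81 to 10.3). Tspan32 of the Kcnq1ot1 domain had 49 and 1 tags (31.9-fold, 5.46 to 1284). Tspan32 also had a B6-enriched H3K27ac region, scoring 41.7. In the other direction, Slc22a18 of the same domain had 14 B6 tags and 0 NOD tags near its start, at least 7.18-fold higher in B6. Ppp1r9a of the Peg10 domain on chromosome 6 had regions of both strains. Its B6-enriched H3K27ac region scoring 274.6, ranked 31 of 5525, lay 118 kb from its start. NOD-enriched regions of both marks lay in Ppp1r9a too, with 32 NOD and 3 B6 H3K4me3 tags in one and an H3K27ac score of 9.57 in another.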
